A study of Mus musculus with 6 samples.

Results

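Ttr and 9 other genes of the choroid plexus epithelium (Kl, Folr1, Clic6, Enpp2, Aqp1, Otx2, Slc4a5, Cldn2 and Prlr) were followed in polyadenylated RNA from the hippocampus of wild-type C57BL/6 mice aged 4 months. The genes were taken from the deposited table by symbol, and all 10 were found among its 31838 genes. They were selected on the deposited counts and FPKM of Ttr and of choroid plexus markers in these same libraries, BBP against corn oil, so their levels and the ratio of Ttr to the others are descriptions and carry no test. Treated mice received 50 mg/kg/day of BBP (butyl benzyl phthalate, used as a plasticiser), and control mice received corn oil. Each group held 3 libraries, and the labels do not say whether these came from separate animals. The study set the hippocampal RNA of BBP mice against that of corn oil mice, under a title on BBP and cognitive impairment.

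The choroid plexus is a folded sheet of epithelial cells that projects into the brain ventricles and secretes cerebrospinal fluid. In the brain, transthyretin, the product of Ttr, is made mainly by this epithelium, which releases it into the fluid, where it carries thyroid hormone and, with retinol-binding protein, vitamin A. The choroid plexus of the lateral ventricle lies against the hippocampus, so that dissected hippocampus can hold a variable amount of it.

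Libraries held 62477604 to 68422361 deposited counts over genes. The pattern of low counts points to about 4 counts per fragment, an assumption, which would make 15619400 to 17105600 fragments per library. BBP library 1 stood apart in regional markers. The summed FPKM (fragments per kilobase of transcript, scaled to library depth) of 8 striatal marker genes was 108.5 there, 28.1 to 30.0 in the other BBP libraries and 28.7 to 44.6 in the corn oil libraries. The sum of 12 markers of hippocampal neurons was 139, 279 and 271 FPKM in BBP libraries 1 to 3 and 276, 275 and 209 FPKM in corn oil libraries 1 to 3. Of these 12 markers, 8 had a negative and 4 a positive log2 fold change, BBP over corn oil (median -0.14). Neurod6, a transcription factor gene of pyramidal neurons, was present in all 6 libraries, with a mean of 81.9 ± 37.6 FPKM in BBP and 78.3 ± 14.1 FPKM in corn oil (SD, n = 3 each).

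Ttr (chromosome 18, 20665280 to 20674321, mm10, plus strand, 4 exons) had 51.5, 44.5 and 58.5 FPKM in BBP libraries 1 to 3, against 81.4, 115 and 366 FPKM in corn oil libraries 1 to 3. Every BBP library lay below every corn oil library, and corn oil library 3 stood far above the other 5. In rank by FPKM over all genes, Ttr stood 763rd, 804th and 628th in the BBP libraries and 415th, 270th and 52nd in the corn oil libraries. The means were 51.5 ± 6.98 FPKM in BBP and 187 ± 155 FPKM in corn oil (SD, n = 3 each), so that the spread was 13.5% of the mean in BBP and 82.8% in corn oil. On counts, the log2 fold change, BBP over corn oil, was -1.84 ± 0.49 (SE of the edgeR fit), and it was -0.92 without corn oil library 3. With that library left out, the BBP mean was 0.524 of the mean of corn oil libraries 1 and 2. In RNA from whole tissue, fewer cells of a type and less RNA per cell cannot be told apart.

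Over all genes, 0 of 20428 tested (0%) had a Benjamini-Hochberg adjusted p under 0.05 by the quasi-likelihood test of edgeR, and 685 had an unadjusted p under 0.05. DESeq2 called 3 genes, and limma on the FPKM values called 0. None of the 10 choroid plexus genes passed in edgeR.

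**Figure D1:**
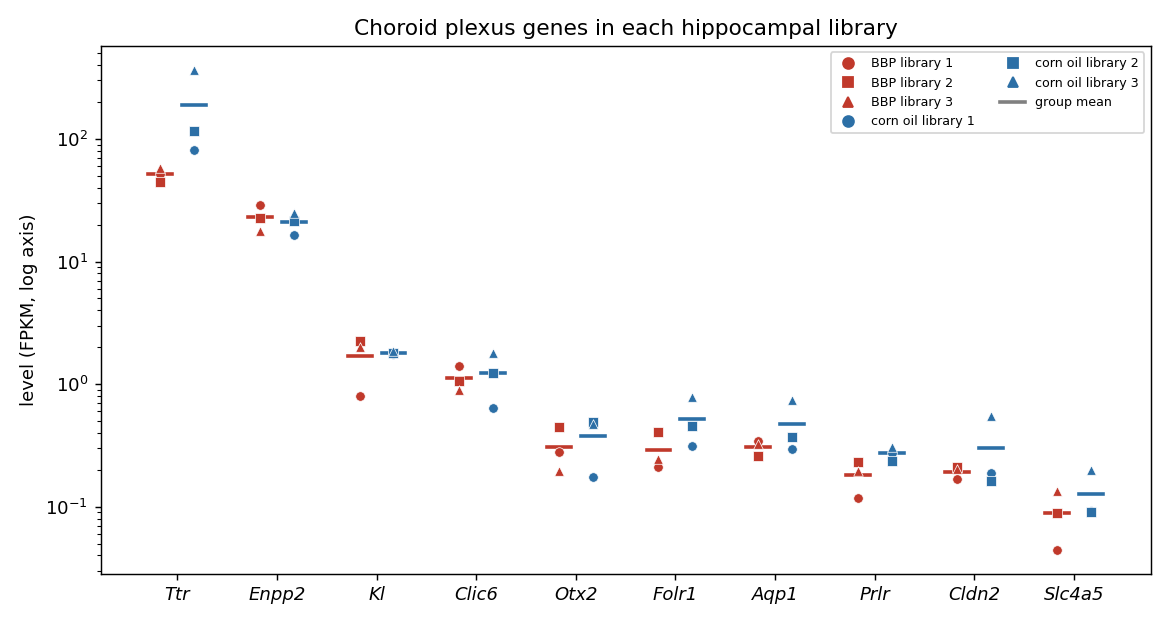
Level (FPKM, log axis) of the 10 genes in each of the 3 BBP libraries (red, left) and 3 corn oil libraries (blue, right), with bars at the group means and genes ordered by their median over the 6 libraries. Ttr lay at 44.5 to 58.5 FPKM in BBP and 81.4 to 366 FPKM in corn oil, while the groups of 8 of the other genes overlap.

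The 10 genes spanned a wide range of levels. Ttr, with a median of 70.0 FPKM over the 6 libraries, and Enpp2, with 22.1 FPKM, were each separate from the next gene in order, since the lowest Ttr value of 44.5 FPKM exceeded the highest of Enpp2, 29.0 FPKM. Kl followed at a median of 1.83 FPKM and Clic6 at 1.15 FPKM. Their ranges overlap each other but not those of Enpp2 above or of Otx2, the next in order, below. The lowest Clic6 value, 0.638 FPKM, does lie below the highest of Folr1 (0.785 FPKM) and of Aqp1 (0.748 FPKM). The medians of Otx2, Folr1, Aqp1, Prlr, Cldn2 and Slc4a5 ran down to 0.0910 FPKM, and each of these overlapped its neighbour in the order. Slc4a5 had 19 to 89 deposited counts per library, about 4.75 to 22.25 fragments at the assumed ratio. Cldn2, Folr1 and Aqp1 had at most 150 counts, and Otx2 had 53 to 153. The levels of these low genes thus rest on few fragments.

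The genes for membrane transport and barrier function were low throughout and peaked in corn oil library 3. Folr1, the folate receptor that carries folate across this epithelium into the cerebrospinal fluid, had 0.212, 0.404 and 0.246 FPKM in BBP, against 0.312, 0.458 and 0.785 FPKM in corn oil. Its groups overlapped, and its log2 fold change was -0.80 ± 0.44 (SE). Aqp1, the water channel of the apical membrane, had 0.342, 0.261 and 0.323 FPKM in BBP and 0.294, 0.372 and 0.748 FPKM in corn oil. Apart from corn oil library 3, its values lay close together in both groups. Cldn2, a tight junction claudin that lets sodium and water pass, had 0.168, 0.211 and 0.201 FPKM in BBP and 0.186, 0.162 and 0.550 FPKM in corn oil. Its log2 fold change was -0.59 ± 0.49 (SE), but it was 0.19 without corn oil library 3, so that the direction turned.

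Slc4a5, a sodium bicarbonate cotransporter, had 0.0446, 0.0883 and 0.135 FPKM in BBP and 0.0922, 0.0898 and 0.201 FPKM in corn oil. Its groups overlapped. Clic6, a member of the chloride intracellular channel family, had 1.40, 1.06 and 0.898 FPKM in BBP and 0.638, 1.24 and 1.79 FPKM in corn oil, with the lowest and the highest value both in the corn oil group. Its log2 fold change of -0.10 ± 0.35 (SE) became 0.28 without corn oil library 3. Without the same library, Aqp1 had -0.09 in place of -0.58, Slc4a5 -0.01 in place of -0.49 and Folr1 -0.38 in place of -0.80.

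Prlr and Kl, which act in hormone signalling, were both lowest in BBP library 1, as were Folr1 and Slc4a5. Prlr, the prolactin receptor, had 0.117, 0.233 and 0.196 FPKM in BBP and 0.272, 0.235 and 0.308 FPKM in corn oil. Every BBP value was below every corn oil value, though 0.233 FPKM in BBP library 2 and 0.235 FPKM in corn oil library 2 hardly differed. Kl encodes klotho, a coreceptor for the hormone FGF23 that is also shed as a soluble protein, and it is known from neurons as well as choroid plexus. It had 0.794, 2.26 and 2.02 FPKM in BBP and 1.77, 1.80 and 1.85 FPKM in corn oil. BBP library 1 was the lowest and BBP library 2 the highest of the 6, and the SD of the corn oil values was 2.19% of their mean. The log2 fold change of Kl was -0.06 ± 0.34 (SE), and 0.28 without BBP library 1, the library in which the hippocampal neuron markers summed to 139 FPKM. The part of those cells in the value of Kl was not tested.

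Otx2, the homeodomain transcription factor that specifies and maintains choroid plexus, had 0.277, 0.447 and 0.196 FPKM in BBP and 0.175, 0.487 and 0.472 FPKM in corn oil. The groups overlapped over their whole range, and the log2 fold change was -0.26 ± 0.46 (SE). Enpp2, which encodes autotaxin, the secreted enzyme that makes lysophosphatidic acid, is also expressed by oligodendrocytes. It had 29.0, 22.7 and 17.6 FPKM in BBP and 16.4, 21.5 and 25.1 FPKM in corn oil. It was the only one of the 10 with a positive log2 fold change in the fit of all libraries, 0.16 ± 0.21 (SE), and it was -0.01 without BBP library 1. The summed FPKM of 10 oligodendrocyte markers was 908, 935 and 643 in BBP and 576, 794 and 599 in corn oil, and all 10 of these markers had a positive log2 fold change (Mbp, encoding myelin basic protein, 0.46 ± 0.21 SE). The part of oligodendrocytes in the value of Enpp2 was not tested.

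**Figure D2:**
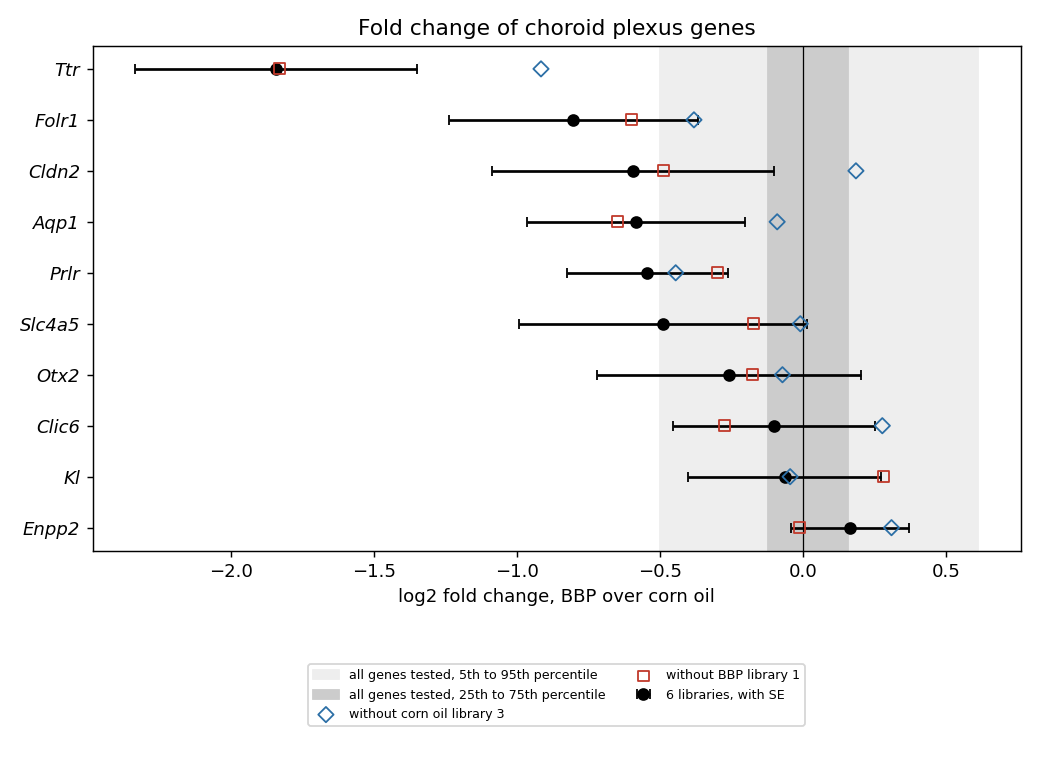
Log2 fold change, BBP over corn oil, of each gene with its SE (black, edgeR, 3 libraries per group), without corn oil library 3 (blue diamonds) and without BBP library 1 (red squares), over bands for all 20428 genes tested. The band of the 5th to 95th percentile, from -0.50 to 0.61, is that of the fit of 6 libraries. Ttr lies outside this band in all 3 fits. Folr1, Cldn2, Aqp1 and Prlr also lie below it in the fit of 6 libraries.

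Together, 9 of the 10 genes had a negative log2 fold change, as did 47.6% of the genes tested, and the median was -0.52 against 0.01 over all genes tested. For the 9 genes other than Ttr the median was -0.49. Only Ttr reached a log2 fold change of -1 or lower, which 1.19% of the genes tested did. All BBP libraries lay below all corn oil libraries for 2 of the 10, Ttr and Prlr, as for 5.25% of the genes tested, and above them for 0 of the 10, as for 4.4% of the genes tested. Since the genes were chosen with this contrast known, nothing is read from these counts. Without corn oil library 3, 7 of the 10 had a negative log2 fold change and the median was -0.06. Without BBP library 1, 9 did and the median was -0.29.

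Corn oil library 3 was the highest of the 6 libraries for 7 of the 10 genes, as it was for 15.7% of the genes tested. Against the mean of the other 5 libraries, its Ttr level was 5.21 times as high. The same factor was 2.96 for Cldn2, 2.40 for Folr1, 2.35 for Aqp1, 2.23 for Slc4a5 and 1.71 for Clic6. It was 1.49 for Otx2, whose highest value was in corn oil library 2, 1.46 for Prlr, 1.17 for Enpp2 and 1.07 for Kl. In the same library the striatal markers summed to 44.6 FPKM and the hippocampal neuron markers to 209 FPKM, and the part of a regional difference in these values was not tested.

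**Figure D3:**
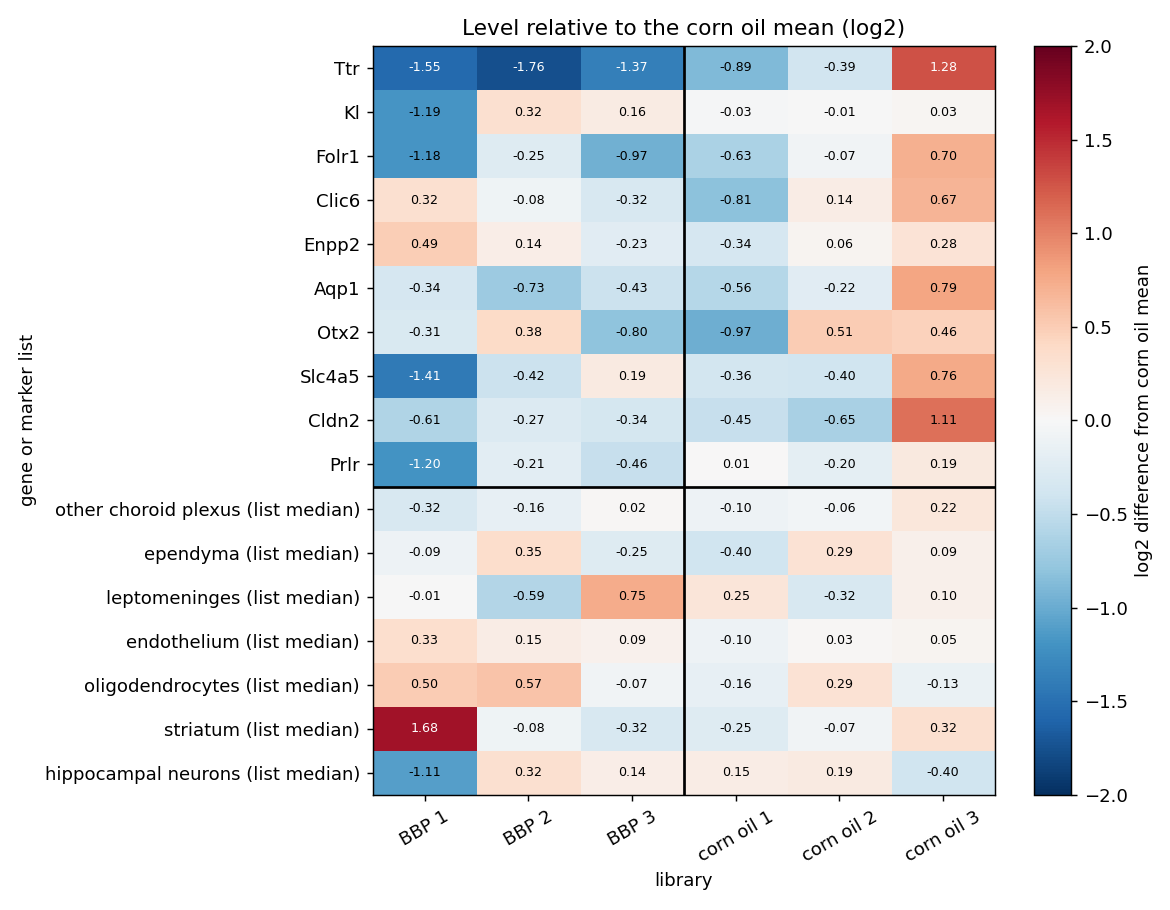
Log2 level in each library minus the corn oil mean, for the 10 genes (log2 FPKM, top) and for the medians of 7 marker lists (log2 of scaled counts (CPM) plus 0.5, bottom), with BBP libraries left of the line and corn oil libraries right of it. Ttr is at -1.37 or lower in all BBP libraries and at 1.28 in corn oil library 3, and BBP library 1 stands apart in striatal markers at 1.68.

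The ratio of Ttr to the other genes, which the selection used, separated the groups, as Ttr alone did. Set over single tested genes with FPKM above 0 in every library, Ttr separated the groups in this way for 81.2% of 19760. Ttr FPKM was 1.59, 1.61 and 2.68 times the summed FPKM of the other 9 genes in BBP libraries 1 to 3, against 4.05, 4.38 and 11.5 times in corn oil libraries 1 to 3. All BBP libraries thus lay below all corn oil libraries. On the log2 scale the ratio averaged 0.93 ± 0.43 in BBP and 2.56 ± 0.84 in corn oil (SD, n = 3 each), a difference of -1.63. Without corn oil library 3 the difference was -1.15, and without BBP libraries 1 and 2, a choice made after seeing the data, it was -1.13.

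The sum itself averaged 4.75 ± 0.29 in BBP and 4.68 ± 0.33 in corn oil (log2 summed FPKM, SD, n = 3 each), a difference of 0.07 that is smaller than the spread between libraries. It is mostly Enpp2, which made up 78.9% to 89.6% of it, and the direction turned without that gene: the difference was -0.26 without Enpp2, -0.31 without Enpp2 and Kl, and -0.26 for the geometric mean of the 9. Without Enpp2, Ttr was 15.3, 8.97 and 13.9 times the sum of the other 8 genes in BBP and 21.8, 23.8 and 54.6 times in corn oil. With Kl left out as well, a choice made after seeing the data, it was 20.1, 16.5 and 26.6 times the sum of the remaining 7 in BBP and 41.4, 37.9 and 75.4 times in corn oil. The groups did not overlap in either version, and the differences were -1.30 and -1.25 on the log2 scale. Both versions share Ttr, which separated the groups by itself, so nothing further is read from this. The 7 low genes summed to 2.57, 2.71 and 2.195 FPKM in BBP and 1.97, 3.04 and 4.85 FPKM in corn oil. Clic6 is the most abundant of the 7, and without it the remaining 6 summed to 1.16, 1.64 and 1.30 FPKM in BBP and 1.33, 1.80 and 3.06 FPKM in corn oil. Corn oil library 1 was thus the lowest of the 6 libraries with Clic6 in the sum, and BBP libraries 1 and 3 lay below it without Clic6.

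**Figure D4:**
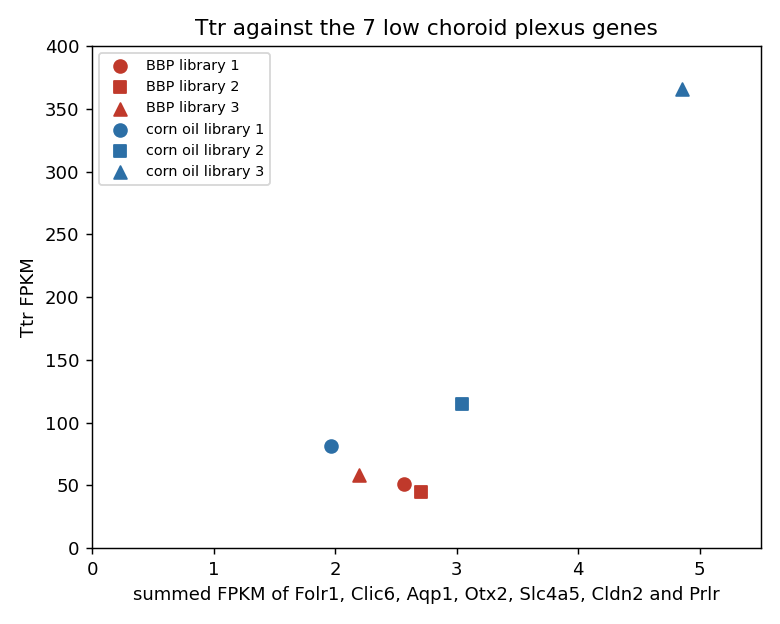
Ttr (FPKM, vertical axis) against the summed FPKM of the 7 low genes (horizontal axis), 1 point per library, with BBP in red and corn oil in blue. BBP libraries lie at 44.5 to 58.5 Ttr FPKM for sums of 2.195 to 2.71 FPKM, and corn oil libraries lie at 81.4 to 366 Ttr FPKM for sums of 1.97 to 4.85 FPKM.

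Gene by gene, the ratio was lower in every BBP library than in every corn oil library for 5 of the 9 genes, which were Folr1, Clic6, Enpp2, Aqp1 and Cldn2. All 9 ratios share Ttr, which itself was lower in every BBP library, so they are not independent of one another. Set over each of 19760 other tested genes with FPKM above 0 in every library, Ttr gave such a separation for 81.2% of them, and nothing particular to the 9 genes is read from their count. The ratio to Aqp1 was the tightest in BBP, at 150.5, 171 and 181, against 277, 310 and 489 in corn oil. Aqp1 had only 64, 49 and 63 deposited counts in BBP libraries 1 to 3, so nothing is read from that tightness. The ratio to Cldn2 was 307, 211 and 291 in BBP and 437, 710 and 666 in corn oil, and here corn oil library 3 was not the highest. For Folr1 the groups came close, with 243, 110 and 237 in BBP and 261, 252 and 466 in corn oil. The groups overlapped for Kl, Otx2, Slc4a5 and Prlr, and the ratio to Prlr was 439 in BBP library 1 and 299 in corn oil library 1. In log2 the differences of the mean ratio ran from -0.76 for Folr1 to -1.69 for Enpp2, all negative.

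**Figure D5:**
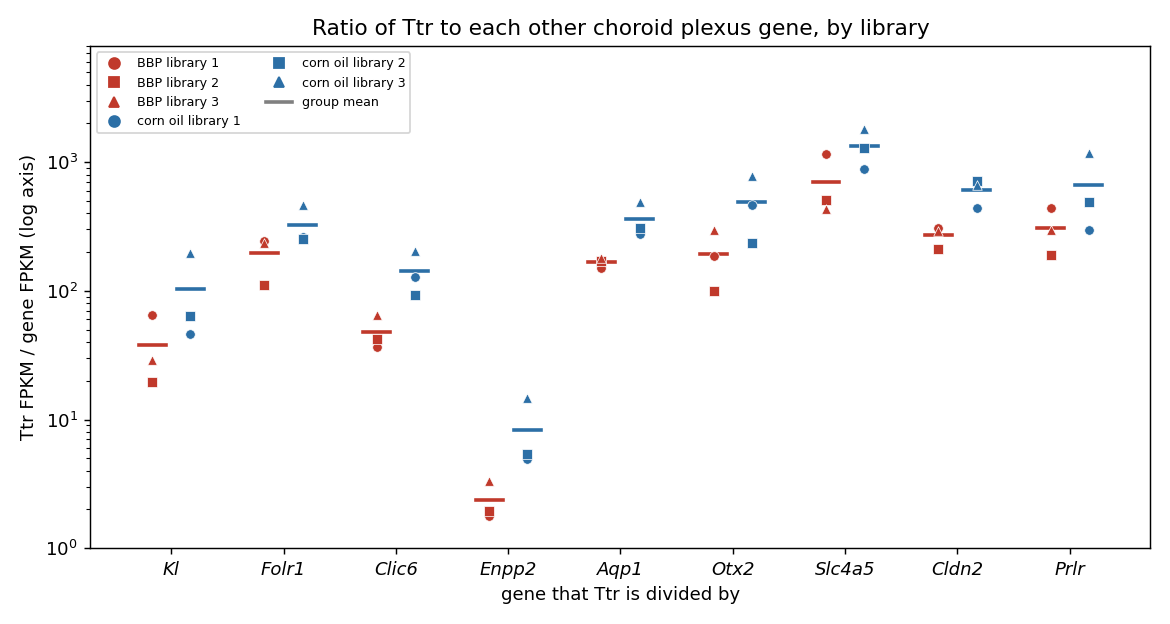
Ttr FPKM divided by the FPKM of each other gene (log axis) in the BBP libraries (red, left) and corn oil libraries (blue, right), with bars at the group means. For Aqp1 the BBP libraries sit at 150.5 to 181 and the corn oil libraries at 277 to 489, while for Prlr the groups overlap.

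Other choroid plexus genes, from a list of 35 symbols of which 34 were measured and 32 tested, gave 23 with a negative and 9 with a positive log2 fold change (median -0.17, 0 passing the test). Over all genes tested, 47.6% had a negative log2 fold change and the median was 0.01. The list was chosen with earlier results of these data known, so nothing is read from its count. Ecrg4, which encodes a secreted peptide precursor (augurin) of this epithelium, had 1.19, 1.54 and 1.32 FPKM in BBP and 1.52, 2.76 and 5.30 FPKM in corn oil. Its log2 fold change was -1.21 ± 0.42 (SE), and -0.63 without corn oil library 3. All BBP values lay below all corn oil values for 3 of the 32, as for 5.25% of the genes tested. These 3 are named here after their values were seen: Kcnj13, a potassium channel gene (0.608 ± 0.167 and 1.26 ± 0.935 FPKM in BBP and corn oil, SD, n = 3 each), Tmem72, a membrane protein gene, and Spint2, a protease inhibitor gene (2.68 ± 0.675 and 3.61 ± 0.493 FPKM). The highest BBP and the lowest corn oil value hardly differed for Kcnj13 (0.7095 and 0.7098 FPKM) and for Tmem72 (0.0428 and 0.0431 FPKM). With corn oil library 3 left out, the log2 fold change of Kcnj13 was -0.24 in place of -1.04, and it was -0.28 in place of -1.15 for Tmem72 and -0.30 in place of -0.42 for Spint2. Genes of the list that neurons also express at a high level differed little, with log2 fold changes of -0.10 ± 0.09 for the sodium pump subunit gene Atp1b1 and -0.01 ± 0.09 for the bicarbonate transporter gene Slc4a10 (SE). Without corn oil library 3 the list had 16 negative members and a median of -0.003, and without BBP libraries 1 and 2 it had 15 negative members.

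Markers of cells that border the choroid plexus summed highest in libraries other than corn oil library 3. The 14 markers of ependyma, the ciliated lining of the ventricles, summed to 15.8, 19.8 and 13.3 FPKM in BBP and 12.01, 21.1 and 17.7 FPKM in corn oil. Of these, 6 had a positive and 8 a negative log2 fold change, and none was at 0 in all libraries. The ependymal sum was lowest in corn oil library 1 and highest in corn oil library 2. By FPKM Otx2 was lowest and highest in the same libraries. Its counts were highest in corn oil library 3 (153, against 147 in corn oil library 2), so nothing is read from this match. The 12 leptomeningeal markers summed to 229.5, 113 and 431 FPKM in BBP and 315, 168 and 253 FPKM in corn oil. Most of this sum is Ptgds, the prostaglandin D synthase gene, with 395 FPKM in BBP library 3 and 223 FPKM in corn oil library 3. BBP library 3, the highest of these, had 58.5 FPKM of Ttr. The part of dissected border tissue in the Ttr level was not tested. All 8 endothelial markers had a positive value in the same fit (median log2 fold change 0.20), and they summed to 64.9 to 81.3 FPKM in BBP and 64.4 to 70.9 FPKM in corn oil.

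Genes that act with transthyretin, klotho, the prolactin receptor and autotaxin showed no common direction. Of 14 tested genes for thyroid hormone and retinol handling, 7 were higher and 7 lower in BBP on the log2 fold change (median 0.02). Dio3, the deiodinase that inactivates thyroid hormone, averaged 1.99 ± 0.539 FPKM in BBP and 2.81 ± 0.143 FPKM in corn oil (SD, n = 3 each). Klf9, a transcription factor gene known to respond to thyroid hormone and glucocorticoids, averaged 36.1 ± 2.42 FPKM in BBP and 31.1 ± 2.62 FPKM in corn oil. Thra, encoding the main thyroid hormone receptor of neurons, averaged 145 ± 21.4 FPKM in BBP and 161 ± 4.43 FPKM in corn oil. None of the 14 passed the test.

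For klotho, 5 of 7 listed FGF receptor and ligand genes were tested, 4 positive and 1 negative, and Fgfr1 averaged 10.1 ± 3.52 FPKM in BBP and 10.2 ± 1.14 FPKM in corn oil (SD, n = 3 each). For the prolactin receptor, 7 of 8 signalling genes were tested, 4 positive and 3 negative with a median of 0.09, and Jak2, its kinase, had 0.09 ± 0.13 (SE). For autotaxin, 5 of 10 lysophosphatidic acid receptor and phosphatase genes were positive and 5 negative with a median of 0.01. Lpar1, a receptor gene expressed in oligodendrocytes, had 0.36 ± 0.22 and Plpp3, a lipid phosphatase gene, 0.11 ± 0.09 (SE). Of 10 tested genes for folate and ion transport outside the choroid plexus list, 8 were positive (median 0.17), among them the astrocytic water channel gene Aqp4 at 0.32 ± 0.15 (SE). None of these genes passed the test.

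The genes whose profile over the 6 libraries was most like that of Ttr were ranked by the root mean square difference between centred log2(FPKM + 1) values, over 11766 other annotated genes with a mean of at least 1 FPKM. Baiap3, encoding a protein of dense-core vesicle trafficking, came first at 0.47 and Ecrg4 second at 0.52, where Ttr itself deviates from its own mean by 1.02. Baiap3 had 1.79, 1.16 and 2.09 FPKM in BBP and 1.897, 2.30 and 7.13 FPKM in corn oil. Zcchc12, Sncg, which encodes gamma-synuclein, and Avp, the vasopressin gene, followed at 0.64, 0.65 and 0.68. Ngb, which encodes neuroglobin, and Htr2c, the serotonin 2C receptor gene, came next at 0.72 and 0.74. Htr2c had 2.25, 2.21 and 3.65 FPKM in BBP and 3.40, 3.54 and 5.30 FPKM in corn oil, so that its groups overlapped. The likeness describes these 6 libraries only.

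The genes lie on several chromosomes in mm10. On the plus strand are Kl (chromosome 5, 150952607 to 150993817), Clic6 (chromosome 16, 92485736 to 92541243), Aqp1 and Slc4a5 (chromosome 6, 55336432 to 55348555 and 83219828 to 83304944), Cldn2 (chromosome X, 139800828 to 139811386) and Prlr (chromosome 15, 10177238 to 10349180). On the minus strand are Folr1 (chromosome 7, 101858331 to 101870788), Enpp2 (chromosome 15, 54838901 to 54920125) and Otx2 (chromosome 14, 48657677 to 48667515). In GENCODE M21, 5 of the 10 overlap no other gene. Folr1 overlaps Anapc15 and Otx2 overlaps Otx2os1, each on the opposite strand. Otx2 also overlaps Gm49154 and Prlr overlaps Gm21973, each on its own strand, while Clic6 and Enpp2 overlap noncoding genes, so the counts of these genes are uncertain.

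Promoters were read from RefSeq (GRCm38.p6), which gave 11 start sites for 6 of the 10 genes, Kl, Aqp1, Otx2, Slc4a5, Cldn2 and Prlr, and the 250 bases before each start were searched on both strands. TAATCC, the core that Otx2 and related homeodomain proteins bind, was found before 1 of the 11 starts, an internal start of Otx2 itself, and in 6.25% of all 32851 promoters. TATAAA, the core of the TATA box, was found before 3 of the 11 starts, 1 each of Otx2, Slc4a5 and Cldn2, and in 12.4% of all promoters. Neither motif overlaps the other in these windows. A match of letters shows no binding. The Otx2 internal start (chr14:48665110-48665359, minus strand), the Cldn2 start (chrX:139800558-139800807, plus strand) and the Slc4a5 start (chr6:83237125-83237374, plus strand, inside the gene's deposited span) are shown because they hold a motif, which is in capitals, with GGATTA and TTTATA as the reverse complements.
Otx2: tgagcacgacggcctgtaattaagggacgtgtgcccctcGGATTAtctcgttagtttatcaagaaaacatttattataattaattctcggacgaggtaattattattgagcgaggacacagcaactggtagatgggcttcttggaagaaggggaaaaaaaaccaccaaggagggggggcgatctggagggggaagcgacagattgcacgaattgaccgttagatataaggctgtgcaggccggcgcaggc
Cldn2: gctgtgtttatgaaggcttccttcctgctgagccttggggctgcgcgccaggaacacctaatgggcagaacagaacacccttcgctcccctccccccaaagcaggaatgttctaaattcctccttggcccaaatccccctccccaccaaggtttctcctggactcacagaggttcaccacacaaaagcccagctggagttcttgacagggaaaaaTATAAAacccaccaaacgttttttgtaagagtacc
Slc4a5: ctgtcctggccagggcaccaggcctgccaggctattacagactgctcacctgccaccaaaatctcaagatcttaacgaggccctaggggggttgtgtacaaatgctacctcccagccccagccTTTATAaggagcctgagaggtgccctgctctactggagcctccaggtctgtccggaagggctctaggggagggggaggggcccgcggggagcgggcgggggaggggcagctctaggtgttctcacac
The TATAAA of Cldn2 begins 35 bases before the RefSeq start, while the TTTATA of Slc4a5 begins 127 bases and the GGATTA of Otx2 211 bases before theirs. The TATAAA of Otx2 lies in a window not shown (chr14:48667645-48667894, minus strand) and begins 192 bases before that start. That window overlaps the window of a further Otx2 start (chr14:48667509-48667758), so the 11 windows are not all separate. The GC content of the 11 windows ran from 32.8% for a start of Prlr to 66.8% for Kl, against a median of 52.4% over all promoters.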

How the data were processed

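Polyadenylated RNA of 6 hippocampal libraries was sequenced as strand-marked read pairs with molecular identifiers, per the labels' protocols. Per the submitters' processing notes, the build was mm10 and the tools included StringTie 2.1.6, HISAT2 2.2.1, cutadapt 1.9 and UMI-tools, with no stated order. The authors deposited estimated counts, which are whole numbers not scaled to depth, and FPKM values, used as given. The counting method and its strand setting are not stated in the labels. A count of 4 (1007 to 1100 genes per library) was more frequent than 3 or 5, from which about 4 counts per fragment were assumed.

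Genes were fitted with edgeR 4.0.16 in R 4.3.3 (TMM scaling, filterByExpr, the quasi-likelihood F test and a single treatment term). Standard errors are the size of the log2 fold change divided by the root of F. Alternatives were DESeq2 1.42.0, limma 3.58.1 on log2(FPKM + 1 or + 0.1), median-of-ratios scaling, no filter, a replicate block and leaving out libraries. The edgeR fit was checked on simulated data. P-values reflect only how these libraries vary, which may be technical. Genes named besides the 10 came from a rule: of each of 12 lists, the 2 highest by mean FPKM and the 2 with the smallest p, and the 10 most like Ttr or the summed others, of which those shown here are a part. Kcnj13 and Tmem72 lie outside that rule. The 10 genes and the lists were chosen with earlier results of these data known. Figures used matplotlib 3.10.9.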

Additional observations from a re-analysis of the deposited data

How the results depend on the processing

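No gene was called in the edgeR fit, with median-of-ratios scaling, without a filter or in the 3 limma fits. DESeq2 called 3, the fits without 1 library called 0 to 3, and the fit without BBP libraries 1 and 2 called 10, with 1 treated library assumed to vary like the others. The cause was not tested. The difference in the Ttr ratio stayed negative in every version, from -1.901 to -1.15 without 1 library. All versions share Ttr and are not independent of one another. The summed other 9 genes, at 0.07, ranged from -0.10 to 0.23 without 1 library. Their difference was -0.26 as a geometric mean, -0.26 without Enpp2 and -0.31 without Enpp2 and Kl. Enpp2 makes up most of the sum, and each of these differences is smaller than the SD of the corn oil libraries. Of the 10 genes, 7 to 9 were lower without 1 library, and of the other choroid plexus genes 16 to 24, against 15 without BBP libraries 1 and 2. Among the fold changes of the 10 genes, 115 of 128 alternative values moved by less than the SD between libraries, and 449 of 484 for the other named genes. Several alternatives use the same counts and nearly repeat the main fit, so these totals say little about stability. Without corn oil library 3, Ttr, Folr1, Aqp1, Slc4a5 and Cldn2 each moved by more than that SD.

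The labels do not say what the replicate numbers of the titles mark. Deviations from the group mean correlated at -0.08, 0.08 and -0.10 for equal numbers and at -0.07 to 0.15 for unequal numbers. These values cannot show whether libraries of equal number shared a litter or a day. With the replicate block edgeR called 0 genes (494 at an unadjusted p under 0.05), Ttr had a log2 fold change of -1.53, and the Ttr ratio differed by -1.63 with an SD of 0.41 between the 3 numbers. Depth limits Slc4a5, Cldn2, Folr1, Aqp1 and Otx2, whose counts stand for few fragments.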

Other observations

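The genes with the profile most like the summed other 9 genes were Ccdc113, which encodes a protein of cilia, at a root mean square difference of 0.061, and Clic1, a chloride intracellular channel gene, at 0.082 on the centred log2(FPKM + 1) scale. Ccdc113 had 1.76, 1.44 and 1.06 FPKM in BBP libraries 1 to 3 and 0.936, 1.23 and 1.85 FPKM in corn oil libraries 1 to 3. Clic1 had 4.70, 3.53 and 2.96 FPKM in BBP and 2.67, 3.11 and 4.14 FPKM in corn oil. Both have their lowest value in corn oil library 1 and mean levels that differ little between the groups. The sum deviates from its own mean by 0.25, against 1.02 for Ttr. Enpp2 makes up 78.9% to 89.6% of the sum, so the deviation and the likeness describe mostly Enpp2. Without Enpp2 and Kl, the log2 summed FPKM ran from 0.98 in corn oil library 1 to 2.28 in corn oil library 3.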
